A study of Capra hircus with 3 samples.

Results

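The vascular endothelial growth factor (VEGF) and angiopoietin family was represented by 9 of the 14363 sheep gene records on the array with which goat skin was measured, through 15 of its 15008 probes. Members were taken by name: records whose gene name was FLT-1, FLT1, KDR, VEGFA, ANGPT1, ANGPT2, TEK or TIE1, or whose description held vascular endothelial growth factor or angiopoietin, with angiopoietin-like genes left out. They had 2 probes for ANGPT1, 4 for ANGPT2, 2 for VEGFA, 3 for FLT1 (VEGF receptor-1), 2 for a soluble form of FLT1 and 2 for KDR (VEGF receptor-2). The names KDR, ANGPT1, ANGPT2, TEK and TIE1 matched 0 records, and those of KDR and the angiopoietins were found by their descriptions. The rule uses names and descriptions only.

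The study compared skin from the side of the body of female Arbas Cashmere goats aged 2 years. The 3 goats of the short photoperiod group were outdoors, where they grazed, were fed and drank, for 7 hours per day, and spent the remaining time in a dark shed at about 0.1 lux. The 3 goats of the natural photoperiod group grazed under natural conditions. Each of the 3 arrays was hybridised with the RNA of 1 goat of each group, a pair of the same parent, with the short photoperiod goat always in Cy5 and the natural photoperiod goat always in Cy3. The dyes were never swapped, so the dye bias of a probe and the effect of the photoperiod cannot be told apart in its ratio. Log2 ratios are those of the short over the natural photoperiod, and replicates 1, 2 and 3 are the arrays and also the pairs of goats. Skin holds many cell types, and in such bulk samples fewer cells of a type and less RNA per cell cannot be told apart.

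VEGFA is the main growth factor that drives the division, migration and survival of endothelial cells. It acts mostly through the receptor kinase KDR, while FLT1 binds VEGFA tightly with weak kinase activity, and the soluble form of FLT1, which lacks the kinase, acts as a decoy. The angiopoietins act on the endothelial receptor Tie-2: ANGPT1, made largely by cells around the vessels, activates it and holds vessels quiescent, and ANGPT2, made by endothelial cells, can block it and loosens vessels for remodelling. The capillary network around hair follicles expands while hair grows and shrinks again when growth stops.

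All 15 probes were 60 bases long, with 1 spot each, and were designed on sheep records. The sequences of the angiopoietin and FLT1 probes are shown because the results turn on how far probes of the same gene overlapped and whether they gave the same ratio. Each sequence is given 5′ to 3′, and capitals mark the stretch that the probe shares with the other probe of its record. A sequence without capitals is the only probe of its record.

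ANGPT1, record AJ630584: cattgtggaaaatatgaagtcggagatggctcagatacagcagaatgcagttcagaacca
ANGPT1, record AY881028: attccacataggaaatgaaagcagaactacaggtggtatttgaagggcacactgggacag
ANGPT2, record AJ630585, probe 1: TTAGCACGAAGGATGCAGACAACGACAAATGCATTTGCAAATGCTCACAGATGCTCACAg
ANGPT2, record AJ630585, probe 2: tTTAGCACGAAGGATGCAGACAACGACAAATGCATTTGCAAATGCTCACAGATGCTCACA
ANGPT2, record AY881029, probe 1: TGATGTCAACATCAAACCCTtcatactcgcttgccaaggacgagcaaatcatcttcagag
ANGPT2, record AY881029, probe 2: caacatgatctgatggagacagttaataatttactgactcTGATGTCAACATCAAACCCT
FLT1, record AF233077, probe 1: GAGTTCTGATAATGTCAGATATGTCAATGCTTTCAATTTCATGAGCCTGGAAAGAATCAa
FLT1, record AF233077, probe 2: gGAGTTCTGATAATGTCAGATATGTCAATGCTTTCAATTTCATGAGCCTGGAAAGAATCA
FLT1, record AF534635: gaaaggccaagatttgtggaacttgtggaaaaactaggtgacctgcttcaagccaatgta

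The pair of ANGPT2 record AJ630585 shared 59 of 60 bases, as did the pair of FLT1 record AF233077, so these pairs read nearly the same stretch of transcript. The pair of ANGPT2 record AY881029 shared 20 bases. Probes of different records of 1 gene shared no run longer than 7 bases and therefore read separate stretches. The VEGFA pair shared 59 bases, the KDR pair 40 and the soluble FLT1 pair 39. The array gives no genome position for these probes. None of the 9 records was found by accession in the goat annotation table, so genes are named as on the array or by its descriptions.

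Per array, 13872 to 14328 non-control spots exceeded background clearly in Cy5 and 14193 to 14602 in Cy3, with 0 spots saturated. After normexp background correction with an offset of 50, ratios were normalised by loess within each array, and limma tested each of 14977 probes against a log2 ratio of 0 with Benjamini-Hochberg adjustment. Levels per goat are given as normalised signals in arbitrary units, which contain the offset. They were used to compare goats at 1 probe, never 1 probe with another. Of the 15 probes, 13 were measured well above background in both groups, 12 of them on all arrays, and the other 2 were those of soluble FLT1.

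Of the 13 measured probes, 0 had an adjusted p under 0.05 from limma, against 1 of all 14977 tested probes, or 0.00668%. Their adjusted p-values lay between 0.164 and 0.985, and 2 of the 13 had an unadjusted p under 0.05, against 18.5% of all tested probes. None of the 13 had a mean change of 2-fold, which 0.427% of all probes had upwards and 0.427% downwards. This count depends on the processing for 1 of them: the FLT1 probe of record AF534635, at 0.88 here, was past 2-fold at 1.04 without the normexp offset, at 1.16 with Feature Extraction's own ratio and in the authors' value table, and at 1.10 without replicate 2. The FLT1 probe of record AF534635 was higher on all 3 arrays, and both ANGPT1 probes were lower on all 3. Over all probes with a value on every array, 21.5% were higher and 22.1% were lower on all 3 arrays, so that 1 and 2 of 13 are no excess over the background. The median of the 13 mean log2 ratios was 0.07, against a median of -0.01 over all tested probes.

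**Figure D1:**
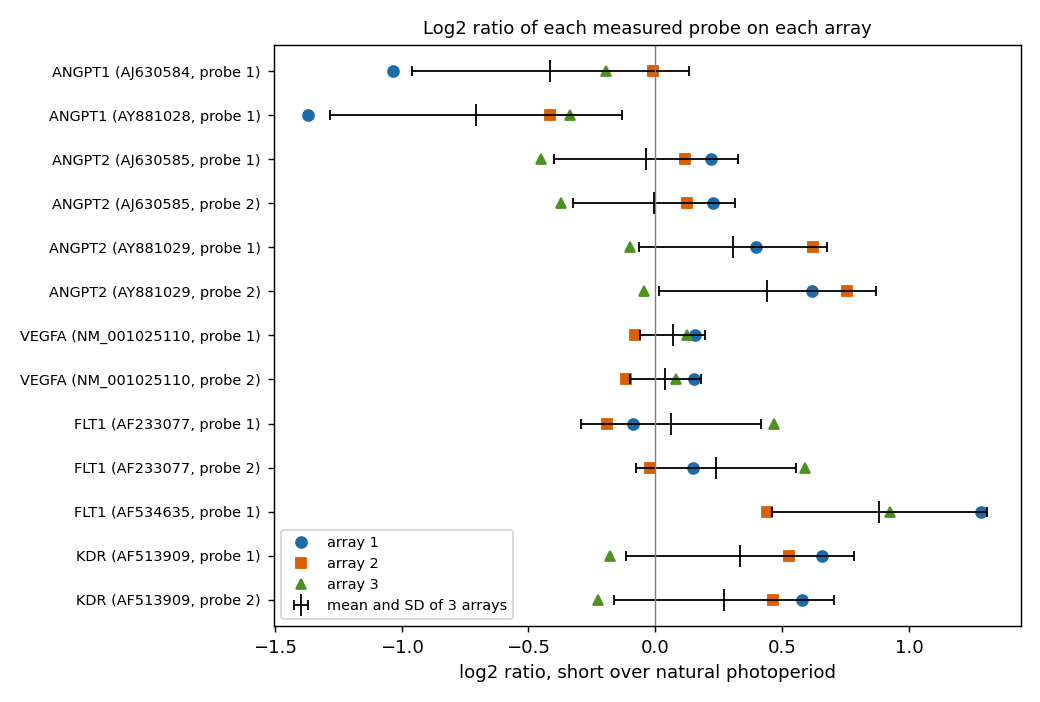
Log2 ratio of the short over the natural photoperiod (x axis) for each of the 13 measured probes of the family (y axis, gene, record and probe), with 1 point per array and a bar for the mean and SD of 3 arrays. Both ANGPT1 probes lie below 0 on every array, the FLT1 probe of AF534635 lies above 0 on every array, and the ANGPT2 and KDR probes lie above 0 on replicates 1 and 2 and below 0 on replicate 3.

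ANGPT1, the activating ligand of Tie-2, was read by 1 probe of each of 2 records. At the probe of AY881028 the normalised signal was 3529, 4811 and 6197 in the short photoperiod goats of pairs 1, 2 and 3, and 9124, 6415 and 7830 in the natural photoperiod goats. All natural photoperiod goats were above all short photoperiod goats, as they were at 7.24% of all probes. The log2 ratios of -1.37, -0.42 and -0.34 gave a mean of -0.71 ± 0.58 (SD, n = 3), or a fold change of 0.612, for which limma gave an adjusted p of 0.227 and an unadjusted p of 0.0287. The size of the difference came mostly from pair 1, in which the natural photoperiod goat had the highest and the short photoperiod goat the lowest signal of the 6 goats.

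At the ANGPT1 probe of AJ630584 the normalised signal was 5806, 6575 and 6904 in the short photoperiod goats and 11901, 6623 and 7907 in the natural photoperiod goats. The groups overlapped here, since the short photoperiod goat of pair 3 was above the natural photoperiod goat of pair 2. The log2 ratios were -1.04, -0.01 and -0.20, with a mean of -0.41 ± 0.55 (SD, n = 3) and an adjusted p of 0.379 from limma. In pair 2 this probe showed almost equal signals, while the probe of AY881028 was lower by 0.42 on the log2 scale in the same pair. Without replicate 1 the mean log2 ratio was -0.10 at AJ630584 and -0.38 at AY881028, so that both probes stayed below 0 and the first lost most of its difference.

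Both ANGPT1 probes were bright. As scanned, before background correction, the Cy5 signal of the AJ630584 probe was between 6199 and 11112 and its Cy3 signal between 5349 and 7222, which was at least 175 times its local background in either channel. The AY881028 probe was 3632 to 9954 in Cy5 and 5233 to 6497 in Cy3, at least 102 times its background. As scanned, Cy5 exceeded Cy3 at both probes on replicates 2 and 3, and fell short of it on replicate 1. The ratios below 0 on replicates 2 and 3 thus rest on the normalisation, which takes account of a Cy5 channel that was brighter over the whole array, with a median signal of 4587 to 7120 against 2688 to 3911 in Cy3.

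ANGPT2, the ligand that can block Tie-2, was read by 4 probes, which gave 2 different pictures by record. At probe 2 of AY881029 the normalised signal was 1403, 1500 and 1273 in the short photoperiod goats and 915, 889 and 1314 in the natural photoperiod goats. The short photoperiod goats of pairs 1 and 2 were the highest of the 6, whereas in pair 3 both goats had nearly the same level. The log2 ratios were 0.62, 0.75 and -0.05, with a mean of 0.44 ± 0.43 (SD, n = 3) and an adjusted p of 0.292 from limma.

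Probe 1 of AY881029 had normalised signals of 1237, 1215 and 831 in the short photoperiod goats and 941, 789 and 891 in the natural photoperiod goats. The ranks were alike, with the goats of pairs 1 and 2 under the short photoperiod highest and those of pair 3 overlapping the rest. Its mean log2 ratio was 0.31 ± 0.37 (SD, n = 3), and limma's adjusted p was 0.382.

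The probes of AJ630585 showed less. Probe 1 had normalised signals of 2785, 1994 and 1537 in the short photoperiod goats and 2391, 1837 and 2102 in the natural photoperiod goats. The highest and the lowest of the 6 goats were thus both from the short photoperiod. Its log2 ratios of 0.22, 0.12 and -0.45 averaged -0.04 ± 0.36 (SD, n = 3), and those of probe 2, at 0.23, 0.12 and -0.37, averaged -0.01 ± 0.32, and limma's adjusted p was 0.911 and 0.985.

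The ANGPT2 probes were also well above background. As scanned, the AJ630585 probes had 1829 to 2808 in Cy5 and 1145 to 1849 in Cy3, and the AY881029 probes 1212 to 2096 in Cy5 and 531 to 1172 in Cy3. The lowest of these readings over local background was 21.3 times, at probe 2 of AY881029 in the natural photoperiod goat of pair 1. At all 4 probes the ratio had the same sign on a given array: above 0 on replicates 1 and 2 and below 0 on replicate 3.

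**Figure D2:**
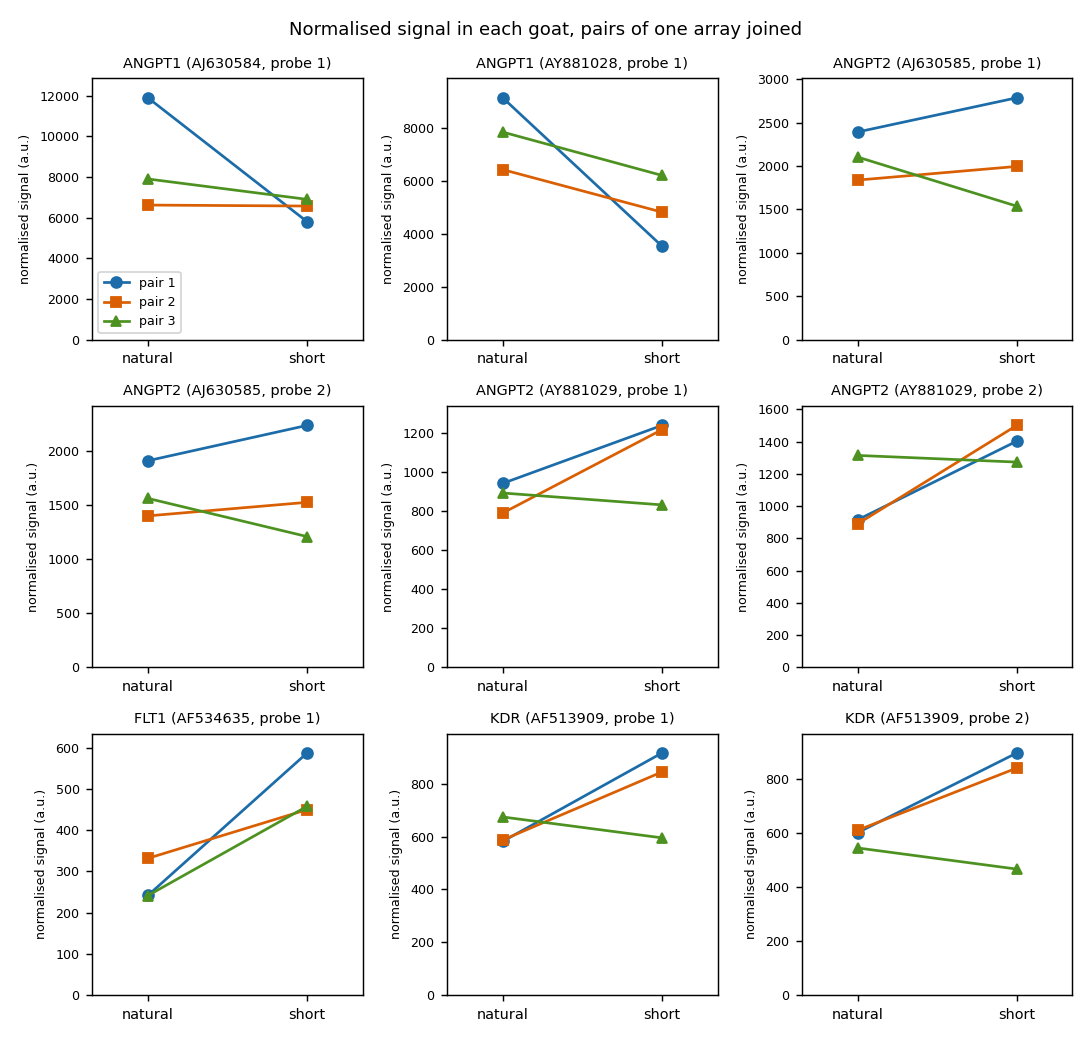
Normalised signal in arbitrary units (y axis, from 0, a separate scale for each probe) in the natural and the short photoperiod goat of each pair (x axis), with a line joining the 2 goats of a pair. For ANGPT1 all lines run downwards and pair 1 falls most steeply, for ANGPT2 and KDR the lines of pairs 1 and 2 run upwards and that of pair 3 downwards, and for FLT1 record AF534635 all lines run upwards.

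The difference of the angiopoietins within an array does not depend on how that array was centred by a constant. It can still depend on loess, whose correction varies with signal. Under median centring the mean log2 ratios were -0.38 and -0.69 for ANGPT1 and between -0.12 and 0.33 for ANGPT2. The values below are those with loess. Averaged over probes, the log2 ratios of ANGPT1 were -1.20, -0.21 and -0.27 on the 3 arrays and those of ANGPT2 were 0.37, 0.41 and -0.24. The ANGPT2 ratio minus the ANGPT1 ratio was therefore 1.57, 0.62 and 0.02, with a mean of 0.74 ± 0.78 (SD, n = 3). It was above 0 on all 3 arrays but close to 0 on replicate 3, and the SD was as large as the mean. An exact sign test over 3 arrays cannot give a two-sided p under 0.25, so none was made.

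The Tie receptors, through which the angiopoietins act, carry the names LOC443516 (Tie-2, record AY288926) and LOC443265 (Tie-1, record AY288925) on the array and were not among the members. They were added to the lists of related genes after the array annotation had been read, and their values are named here after they were seen. All 4 probes, which come as pairs of the same record, were lower on all 3 arrays, as were 22.1% of all probes. The mean log2 ratio was -0.36 ± 0.35 and -0.32 ± 0.26 (SD, n = 3) for Tie-2. For Tie-1, a relative of Tie-2 that binds no angiopoietin by itself, the means were -0.25 ± 0.19 and -0.21 ± 0.16. None had an adjusted p under 0.298 from limma, the largest differences were those of replicates 1 and 3, and the ratios on replicate 2 lay between -0.09 and -0.03. The summed normalised signal of the 4 probes was between 961 and 1222 in the short photoperiod goats and between 1167 and 1479 in the natural photoperiod goats, so the groups overlapped. Median centring in place of loess moved the median of the 4 probes from -0.28 to -0.57, and without replicate 3 it was -0.17.

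VEGFA, the main VEGF ligand, had ratios near 0 with little spread. Probe 1 had normalised signals of 4469, 3707 and 3399 in the short photoperiod goats and 4008, 3915 and 3116 in the natural photoperiod goats, which overlapped throughout. The log2 ratios were 0.16, -0.08 and 0.13 at probe 1 and 0.15, -0.12 and 0.08 at probe 2. Their means were 0.07 ± 0.13 and 0.04 ± 0.14 (SD, n = 3), less than their SD, with SDs below the median SD of 0.20 over all probes. As scanned, both probes had 4260 to 5338 in Cy5 and 2263 to 3216 in Cy3, at least 87.5 times local background.

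FLT1 was read by 3 probes of 2 records, which the array assigns to the same transcript cluster. At the probe of AF534635, named FLT-1 on the array, the normalised signal was 587, 450 and 458 in the short photoperiod goats and 241, 332 and 241 in the natural photoperiod goats. All short photoperiod goats were above all natural photoperiod goats, as they were at 6.5% of all probes. The mean log2 ratio was 0.88 ± 0.42 (SD, n = 3), with an adjusted p of 0.164 and an unadjusted p of 0.00482 from limma, which placed it at rank 437 of all tested probes. The probe was dim: as scanned it had 545, 601 and 631 in Cy5 but only 128, 280 and 216 in Cy3, and in Cy3 of replicate 1, the array with its largest ratio, the signal was 5.10 times local background.

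The FLT1 probes of AF233077 were dim as well. Probe 2 had normalised signals of 238, 267 and 238 in the short photoperiod goats and 215, 271 and 159 in the natural photoperiod goats, with the natural photoperiod goat of pair 2 the highest of the 6. Its mean log2 ratio was 0.24 ± 0.31 (SD, n = 3), and limma's adjusted p was 0.435, and centring the arrays on their medians, without loess, turned it to -0.095. Probe 1 was well above background in Cy5 on 2 of 3 arrays, with signals of 142, 131 and 191 against 151, 149 and 138, and its mean of 0.06 ± 0.35 turned to -0.36 under median centring. As scanned, these probes had 119 to 343 in Cy5 and 87.8 to 231 in Cy3.

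The soluble form of FLT1, record AF513910, was not measured. Its probe 1 was well above background in Cy5 on 0 arrays and in Cy3 on 2, and its probe 2 on 0 arrays in either channel. Scanned signals of probe 1 were 74.9, 110 and 133 in Cy5 and 54.9, 79.9 and 98.5 in Cy3, between 2.39 and 4.21 times local background. Those of probe 2 were 72.8, 89.2 and 116 in Cy5 and 48.6, 62.7 and 70.1 in Cy3, between 1.87 and 2.94 times. No ratio or fold is given for them, and a difference of this form between the groups was not detectable on these arrays.

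KDR, the main signalling receptor of VEGFA, was read by 2 probes of record AF513909, described on the array as VEGFR-2. Probe 1 had normalised signals of 918, 846 and 596 in the short photoperiod goats and 583, 588 and 675 in the natural photoperiod goats. The short photoperiod goats of pairs 1 and 2 were the highest of the 6, and in pair 3 the order was turned. The log2 ratios were 0.66, 0.52 and -0.18 at probe 1 and 0.58, 0.46 and -0.22 at probe 2. The means of 0.33 ± 0.45 and 0.27 ± 0.43 (SD, n = 3) were within their SD, and limma's adjusted p was 0.402 and 0.472. As scanned, both probes had 668 to 1173 in Cy5 and 327 to 626 in Cy3, at least 14.9 times local background.

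The agreement of probes of the same gene was described by the difference of their log2 ratios on each array. Probes of 1 record agreed closely. The difference averaged -0.03 ± 0.04 (SD, n = 3) for ANGPT2 record AJ630585, 0.03 ± 0.02 for VEGFA and 0.06 ± 0.02 for KDR. It was larger for the pair of ANGPT2 record AY881029, which shares only 20 bases, at -0.14 ± 0.08, and for the dim pair of FLT1 record AF233077, at -0.18 ± 0.06. Over the 457 records on the array with 2 probes above background, the median absolute difference of the mean log2 ratio was 0.064 and the 90th percentile just under 0.25, so that all 5 pairs of the family lay below the 90th percentile.

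Probes of different records of 1 gene agreed less well. The ANGPT1 probe of AJ630584 was above that of AY881028 by 0.29 ± 0.14 (SD, n = 3), on all 3 arrays. The ANGPT2 probes of AJ630585 were below those of AY881029 on all 3 arrays in each of the 4 combinations, with a mean difference between -0.48 and -0.31. For FLT1, probe 2 of AF233077 was below the probe of AF534635 by 0.64 on the mean log2 scale, with single differences of -1.13, -0.46 and -0.34. All these means were beyond that 90th percentile, which is for probes of the same record. The background for probes of different records was not computed, and the cause of these differences was not tested.

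**Figure D3:**
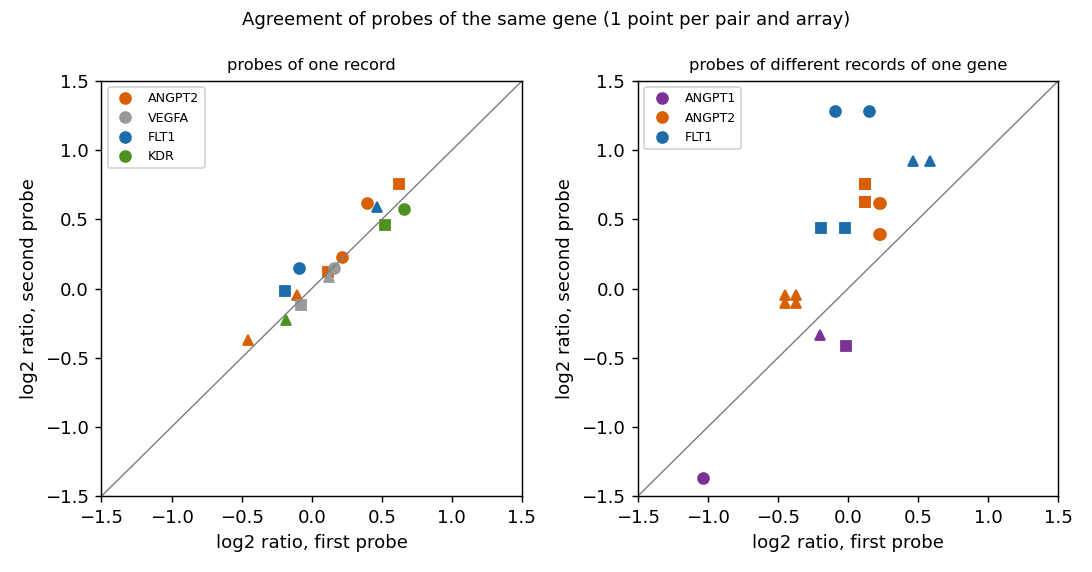
Log2 ratio of 1 probe (x axis) against the other probe (y axis) of each pair of measured probes of a gene, for probes of the same record (left) and of different records (right), with circles, squares and triangles for replicates 1, 2 and 3 and a line of equal ratios. Pairs of the same record lie near the line, while all FLT1 and ANGPT2 points on the right lie above it and all ANGPT1 points below it.

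The probes with a gene symbol whose ratios lay nearest over the 3 arrays, among 1187, were named for the angiopoietins and for FLT1 record AF534635. For ANGPT1 they were F2, GRIA3 and IGFBP5 at the AJ630584 probe, with a root mean square difference of 0.012, 0.062 and 0.076 on the log2 scale. At the AY881028 probe they were 2 probes of FGF7, at 0.187 and 0.214, and PTX3 at 0.239. FGF7 is a growth factor that dermal cells send to keratinocytes, and its ratios were -1.17, -0.24 and -0.53 at the nearer probe. For ANGPT2 they were HOXA4, PLIN5 and OMYHC2A at probe 1 and PLIN5, OTR and SQSTM1 at probe 2 of AJ630585. For AY881029 they were 2 probes of FZD3 with ABHD5 at probe 1, and OCLN, CRYAB and BMP2 at probe 2. For FLT1 they were 2 probes of GJB2, at 0.158 and 0.219, and AQP5 at 0.233. With 3 arrays such likeness is a description only.

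Genes around the family were read from lists of related genes and cell type markers. In the lists described below 0 probes had an adjusted p under 0.05 from limma. Beside the counts of probes higher or lower on all 3 arrays stand 21.5% and 22.1% of all probes. The list of VEGF receptor signalling held 11 probes, 2 higher and 1 lower on all 3 arrays, with a median of -0.02. Its lowest probe was one of CAV1, the coat protein of endothelial caveolae, at -0.32 ± 0.24 (SD, n = 3). The CAV1 probe of another record was at -0.13 ± 0.11. The highest probe of the list was one of NRP2, a co-receptor for VEGF, at 0.37 ± 0.05, which turned to -0.03 under median centring. The other probe of the same NRP2 record was not well above background on every array, so its own ratio is not given. It does count among the 11 probes of this list and in the median over all 4 neuropilin probes. The neuropilin co-receptors had a median of 0.17 over the 3 probes above background. Over all 4 it was 0.11, which turned to -0.12 under median centring. The lowest of the 3, named RECEPTOR on the array, was at -0.12 ± 0.23, or 0.40 under median centring. The middle one, named NP-2, was at 0.17 ± 0.18, or -0.21 under median centring. ITGA5 and ITGB1, integrin chains that angiopoietins can bind, were at -0.20 ± 0.18 and -0.12 ± 0.23, and ITGB1 turned to 0.14 under median centring.

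Among 19 probes of other angiogenic factors, 5 were higher and 5 lower on all 3 arrays, with a median of -0.17. The highest was JAG1, a Notch ligand, at 0.89 ± 0.33 (SD, n = 3), and limma's adjusted p was 0.157, and its other probe was at 0.77 ± 0.31. With Feature Extraction's own ratio these probes were at 1.14, past 2-fold, and 0.97, and under median centring at 0.63 and 0.53. The lowest was IL8, a chemokine, at -0.46 ± 1.00, with ratios of 0.35, -0.15 and -1.58. The other IL8 probe was at -0.09 ± 1.02, with ratios of 0.85, 0.05 and -1.17. Of 5 probes of angiogenesis inhibitors, 1 was higher and 1 lower on all 3 arrays. These were a probe for TIMP3, an inhibitor of metalloproteinases, at 0.32 ± 0.12 and CXCL10, an interferon-induced chemokine, at -0.87 ± 0.70. Another TIMP3 probe of the list had ratios of 0.41, 0.06 and -0.26, with a mean of 0.07 ± 0.34. The hypoxia pathway, whose transcription factors drive VEGFA, held 12 probes with 4 higher and 1 lower on all 3 arrays and a median of -0.05. Its highest probe was one for EGLN2, an oxygen-sensing hydroxylase, at 0.34 ± 0.24, and its lowest was one of LDHA, a glycolytic enzyme, at -0.38 ± 0.14, which turned to 0.06 under median centring. The other LDHA probe was at -0.17 ± 0.18, or 0.27 under median centring.

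The endothelial markers are given beside the family because its receptors and ANGPT2 are made mainly by endothelial cells. All 8 probes were well above background in every goat. Of these, 5 were lower and 1 was higher on all 3 arrays, against 22.1% and 21.5% of all probes, and the median log2 ratio was -0.34. All SELE and SELP probes were among the 5. SELE, the adhesion molecule E-selectin of activated endothelium, had ratios of -1.17, -1.15 and -0.77 at one probe, with a mean of -1.03 ± 0.23 (SD, n = 3), past 2-fold, and an adjusted p of 0.157 from limma. Its other probe was at -0.66 ± 0.35. SELP, another selectin, was at -0.46 ± 0.18 and -0.47 ± 0.45. These SELE and SELP probes had the lowest means of the list, and NOS3 was at -0.10 ± 0.15. EDN1, the vessel-constricting peptide endothelin-1, was the highest at 0.37 ± 0.11. The summed normalised signal of the list was between 34775 and 39457 in the short photoperiod goats and between 36847 and 44947 in the natural photoperiod goats, which overlapped. The ratios above 0 of FLT1 record AF534635 and, on replicates 1 and 2, of ANGPT2 and KDR thus stood beside a list median below 0. The lowest probes of that list were those of selectins, and the part of endothelial cell content in any of these values was not tested.

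The list of pericytes and vascular smooth muscle, the cells that can supply ANGPT1, had a single probe, of CNN1, at -0.20 ± 0.47 (SD, n = 3), which turned to 0.38 under median centring. Lymphatic endothelium had 0 probes on the array. Of the skin markers, 9 probes were tested, with 1 higher and 3 lower on all 3 arrays and a median of -0.41 that turned to 0.07 under median centring. Without replicates 1, 2 and 3 in turn this median was -0.14, -0.15 and -0.64. The highest was KRT14, a basal keratin of epidermis and outer root sheath, at 0.65 ± 0.57, or 1.54 under median centring, and the lowest was a probe for COL3A1, a collagen of the dermis, at -0.72 ± 0.50. Further COL3A1 probes were at -0.60 ± 0.37 and -0.62 ± 0.40. All 9 were clearly above background in either group. On replicate 1, which had the largest ANGPT1 difference, the ratio of the lowest COL3A1 probe was -1.05 and the KRT14 ratio 1.24. On replicate 2 the ratio of that COL3A1 probe was -0.97 while those of ANGPT1 were -0.01 and -0.42. The other dermal genes of the list did not follow one direction. COL1A1 had ratios of -0.73, -0.88 and 0.37. The DCN probes, for the proteoglycan decorin, had -0.23 and -0.28 on replicate 1 but 0.30 and 0.38 on replicate 2. The DCN means were 0.03 and 0.13, or 0.93 and 0.98 under median centring. A further probe of the list, named only by a transcript cluster, had -0.47 and -0.81 on replicates 1 and 2 and no value on replicate 3. Another such probe had -0.63, -0.43 and 0.37. Their means of -0.64 and -0.23 turned to 0.16 and 0.07 under median centring. The part of dermal content in the ANGPT1 values was not tested.

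The genes of red blood cells had a median of -0.16 over 5 probes, with HBB, the beta chain of haemoglobin, lowest at -0.30 ± 1.65 (SD, n = 3). Its ratios were 0.06, -2.11 and 1.15, and the summed signal of the list in the natural photoperiod goat of pair 2 was 25882, against 8749 to 12505 in the other 5 goats. This natural photoperiod sample thus stood apart from the other 5 at the HBB probes, with signals of 11352 and 8556. The other probes of the list did not show this, with AHSP at 1053 and 1029 in this goat, within the range of the other 5. The highest mean log2 ratio of the list was that of an AHSP probe, at -0.05 ± 0.33. Without replicate 2 the mean log2 ratio was further from 0 at the ANGPT1 probes, -0.62 and -0.85, and at FLT1 record AF534635, 1.10. It was nearer 0 at the ANGPT2 probes of AY881029, where it went from 0.31 to 0.15 and from 0.44 to 0.29, and at the KDR probes, where it went from 0.33 to 0.24 and from 0.27 to 0.18. The part of blood in these values was not tested.

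**Figure D4:**
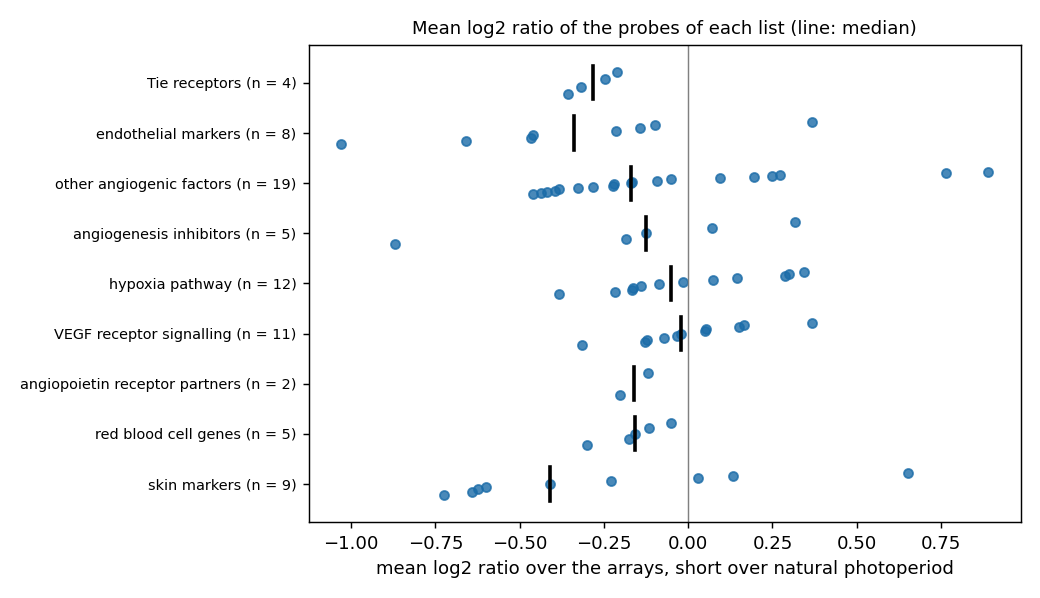
Mean log2 ratio over the arrays (x axis) of each tested probe (1 point each) in the lists of related genes and cell type markers (y axis, with the number of probes), with a vertical line at the median of each list. The medians of the Tie receptors, at -0.28, and of the endothelial markers, at -0.34, lie below 0, and the VEGF receptor signalling and hypoxia lists lie around 0.

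The mean ratios were recomputed under other ways of processing the arrays, between 13 and 15 for each probe. Several of these cannot move the mean of a probe, as they change only the test or the probes kept. Keeping flagged spots left these means unchanged, and Feature Extraction's ratio and the authors' table gave almost equal values. The means could move with background correction, normalisation and the array left out. ANGPT1 stayed below 0 under every way of processing, between -0.62 and -0.10 at AJ630584 and between -0.89 and -0.38 at AY881028. The AY881029 probes of ANGPT2 stayed above 0, between 0.15 and 0.51 at probe 1 and between 0.29 and 0.69 at probe 2, as did the KDR probes, between 0.17 and 0.59 and between 0.09 and 0.52. FLT1 record AF534635 stayed between 0.63 and 1.16, with adjusted p-values between 0.0524 and 0.407 from limma. The AJ630585 probes of ANGPT2, VEGFA probe 2 and the AF233077 probes of FLT1 each changed sign under at least 1 way of processing.

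**Figure D5:**
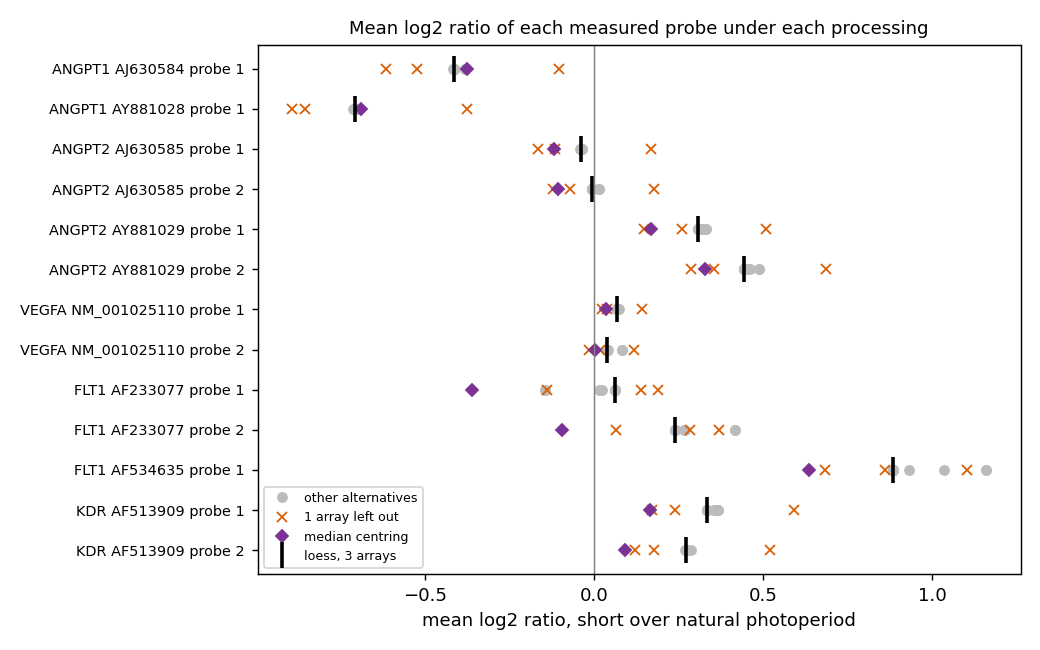
Mean log2 ratio of the short over the natural photoperiod (x axis) of each measured probe (y axis) with loess and 3 arrays (black line), with each array centred on its median (diamond), with 1 array left out (crosses) and under the other ways of processing (grey circles). The ANGPT1 points all lie below 0, those of FLT1 record AF534635, KDR and ANGPT2 record AY881029 all lie above 0, and those of ANGPT2 record AJ630585 and FLT1 record AF233077 lie on both sides.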

How the data were processed

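The authors hybridised skin RNA of 3 pairs of goats to 3 Agilent sheep arrays and read them with Feature Extraction 10.7.3.1 (version from the submitters' processing notes and file headers). The scanner output that was deposited gives spot and local background intensities for both dyes, not normalised, and Feature Extraction's log10 ratio after the authors' lowess normalisation. The deposited value table holds the authors' log2 ratios, which were used as an alternative.

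These intensities were processed with limma 3.58.1 in R 4.3.3: normexp with an offset of 50 on all spots, removal of control spots, loess within arrays, removal of spots with an outlier flag (4 kinds) and averaging of spots of a probe. Probes with values on at least 2 arrays were tested with lmFit and eBayes against 0, with Benjamini-Hochberg adjustment over 14977 probes and a threshold of 0.05. Since each array holds a pair of goats, this test is paired, and the pairing by parent comes from the paper's text. The methods' rule of a fold change of 2 or 0.5 was applied to the mean log2 ratio. Normalised signals per goat were the channel values after loess and Aquantile normalisation. The 3 arrays limit the precision of every value, and the sample labels name no batch, so no batch could be tested.

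Every member probe is named. Of the lists, probes past the adjusted p or 2-fold are named, otherwise the highest and lowest of each list. After their values were seen, the Tie receptors, COL1A1, DCN, SELP, NOS3, NP-2 and AHSP were named. So were further probes of SELE, JAG1, IL8, CAV1, LDHA, TIMP3, COL3A1 and HBB. The skin list's probes named only by a transcript cluster were also added then. The lists were not tested as sets. The members and lists were chosen with earlier results of these data known. The fit was tested on simulated data. Figures were drawn with matplotlib 3.10.9.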

Additional observations from a re-analysis of the deposited data

How the results depend on the processing

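The number of measured family probes with an adjusted p under 0.05 from limma was 0 under every alternative run. Over all probes, 1 was called with loess and 3 arrays, 5 with Feature Extraction's own log ratio, 14 with the authors' value table, 158 (89 higher, 69 lower) with separate channels and the correlation within spots, and 1885 (1013 higher, 872 lower) with median centring. The fit without the replicate block, which takes the channels as unpaired samples, called 0, with 1141 unadjusted p-values under 0.05, and leaving out 1 array called 0 each time (range 0 to 0), with 1601 to 2427. The pairing changed no call of a family probe. A mean 2-fold change was found for 128 probes (64 higher, 64 lower), 200 without an offset in normexp, 291 (162 higher, 129 lower) with Feature Extraction's ratio, 371 (293 higher, 78 lower) with median centring, 474 (358 higher, 116 lower) with the authors' table, and 17 on every array. With replicates 1, 2 and 3 left out in turn it was 290, 208 and 159, a range of 159 to 290.

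Signs were reversed as follows. With 1 array left out, ANGPT2 record AJ630585 ranged from -0.17 to 0.17 (probe 1) and from -0.12 to 0.18 (probe 2), above 0 without replicate 3, and probe 2 at 0.015 with Feature Extraction's ratio and at 0.015 in the authors' table. VEGFA probe 2 ranged from -0.017, without replicate 1, to 0.117. FLT1 record AF233077 probe 1 was at -0.14 with Feature Extraction's ratio, -0.14 in the authors' table, between -0.14, without replicate 3, and 0.19 with 1 array left out, and at -0.36 with median centring, and probe 2 was at -0.095 with median centring. List medians moved with median centring to 0.073 for skin markers, 0.31 for angiogenesis inhibitors, -0.57 for the Tie receptors and -0.12 for the neuropilins, and without replicate 3 to -0.024 for other angiogenic factors, over leave-one-out ranges of -0.274 to -0.024. With 1 array left out, the medians of skin markers ranged from -0.64 to -0.14, of the Tie receptors from -0.40 to -0.17 and of angiogenesis inhibitors from -0.29 to -0.042. The causes were not tested. Signals near background limit the soluble FLT1 and the dim FLT1 probes, and the number of arrays limits every other value.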
